A study of Homo sapiens with 11 samples.

Results

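The miR-320 family was followed in human neuroblastoma cells that were differentiated with or without oxidative stress. Its 5 members, hsa-miR-320a, hsa-miR-320b, hsa-miR-320c, hsa-miR-320d and hsa-miR-320e, were taken by name, whatever their values, from the 2576 mature miRNAs in the count tables. In all groups SH-SY5Y cells received 10 µM all-trans retinoic acid (ATRA) for 7 days, which turns these neuroblasts into neuron-like cells. In co-treatment, 10 µM H2O2 was present during those 7 days (3 libraries, group AH), and its controls had ATRA without H2O2 (3 libraries, AH-con). In pre-treatment, 10 µM H2O2 was given for 72 h, removed, and followed by ATRA (3 libraries, HA), and its controls again had ATRA without H2O2 (2 libraries, HA-con). The study describes the samples as biological triplicates, of which 1 outlying sample was removed by the authors, and the pre-treatment control group here has 2 libraries. All libraries come from this tumour line, which was derived from SK-N-SH cells, so they hold the replicate spread of 1 line and not of different donors.

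Most miRNAs are cut out of a long primary transcript by the nuclear enzyme Drosha. The hairpin of miR-320a takes another route: it is transcribed directly as a short capped RNA, leaves the nucleus through Exportin-1 and is cut by Dicer, after which mainly its 3′ strand is loaded. Drosha-independent miRNAs also include miR-484, made in the same way, and mirtrons, whose hairpins are short introns released by splicing.

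The mature sequences of 4 of the 5 members are shown because they decide both which messenger RNAs a member can pair with and how well sequencing reads can tell the members apart. They are RefSeq sequences (GRCh38.p14), written 5′ to 3′, with the seed (bases 2 to 8) in capitals. hsa-miR-320a had no entry among the RefSeq sequences used and is not shown.
hsa-miR-320b: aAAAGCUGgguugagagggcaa
hsa-miR-320c: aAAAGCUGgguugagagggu
hsa-miR-320d: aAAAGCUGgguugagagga
hsa-miR-320e: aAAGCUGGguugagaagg
hsa-miR-4429: aAAAGCUGggcugagaggcg
hsa-miR-320b, hsa-miR-320c and hsa-miR-320d shared 1 seed and differed only at the 3′ end. hsa-miR-320c had the first 19 bases of hsa-miR-320b, and hsa-miR-320d the first 18. hsa-miR-320e began at base 2 of hsa-miR-320b, so its seed was moved by 1 base, and it carried the substitution G17A, counted from 1 at the 5′ end of hsa-miR-320b. hsa-miR-4429 was the only other measured miRNA with the seed of hsa-miR-320b among those with a sequence (2262 of 2576), and it shared the first 10 bases. A read that ends early can be assigned to more than 1 of these members, and how the counting treated such reads is not given in the sources used here. The counts of the minor members are uncertain to that extent. hsa-miR-320a, by far the most abundant member, could not be included in this comparison of sequences. Whether some of its reads were counted as minor members was not tested, so changes of the minor members may not be separate from its own.

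The hairpins of the minor members lie apart in the genome (GRCh37). For hsa-miR-320b they are at chr1:117214371-117214449, plus strand, outside annotated genes, and at chr1:224444706-224444843 in an intron of NVL on the same strand. For hsa-miR-320c they are at chr18:19263471-19263558 and chr18:21901650-21901699, in introns of ABHD3 and OSBPL1A but on the opposite strand. For hsa-miR-320d they are at chr13:41301964-41302011 and chrX:140008337-140008384, both on the minus strand outside annotated genes. The single hsa-miR-320e hairpin is at chr19:47212550-47212602, in an intron of PRKD2 on the same strand.

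Library totals ranged from 5343953 to 8927582 counts, and 3 counts, taken as the detection limit, equalled 0.336 to 0.561 CPM (counts scaled to a common library total) depending on the library, a limit that covers counting error only. Levels below are CPM scaled with edgeR's TMM factors, which adjust library totals for composition on the assumption that most miRNAs do not change. The factors for levels were fitted over all 11 libraries, and those of the tests within each experiment. The neuronal marker hsa-miR-137 was abundant in every library (10926 to 34863 CPM), whereas hsa-miR-124-3p, another neuronal marker, had 3 counts or fewer in 9 of the 11 libraries. The 2 pre-treatment controls were less alike (correlation of log2 CPM over miRNAs 0.933) than any other pair within a group (0.977 to 0.991). HA-con1 also had a higher sum of the 5 white blood cell markers (119 CPM against 9.70 to 22.2 elsewhere), carried mostly by hsa-miR-223-3p (76.3 CPM). Its sum of the 6 measured epithelial markers was higher too (185 against 42.2 to 54.1), but through hsa-miR-205-5p alone (142 CPM), since none of the other 5 exceeded its highest value elsewhere. With bulk RNA, a change in the cells present and a change of the miRNA within each cell cannot be told apart.

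hsa-miR-320a, the canonical member, supplied nearly all of the family. It made up 99.7 to 99.9% of the family's counts in every library, and the other 4 members together 0.0865 to 0.250%. It ranked between 14 and 66 among the 2576 miRNAs by level, highest in the pre-treatment controls (14 and 17) and lowest in AH-con3 (66). The other co-treatment controls (39 and 38) ranked much as the pre-treatment H2O2 libraries (38 to 42). Values for the sum of the family are therefore values for hsa-miR-320a.

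In the co-treatment controls, hsa-miR-320a measured 4452, 4257 and 1958 CPM (3556 ± 1387, SD, n = 3). With H2O2 during differentiation it measured 6099, 5690 and 6284 CPM (6024 ± 304, n = 3). Every H2O2 library lay above every control, and the third control was the low one. In pre-treatment the order was the opposite: the controls stood at 15419 and 11225 CPM (13322 ± 2965, n = 2) and the H2O2 libraries at 4082, 3936 and 3367 CPM (3795 ± 377, n = 3). The pre-treatment controls were the highest of all 11 libraries, with a mean 3.75 times that of the co-treatment controls, although both control groups were given ATRA alone. The H2O2 groups lay closer together, co-treatment at 1.59 times pre-treatment. Culture or library differences between the experiments and the regimens themselves cannot be told apart in these ratios, which were not tested.

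**Figure D1:**
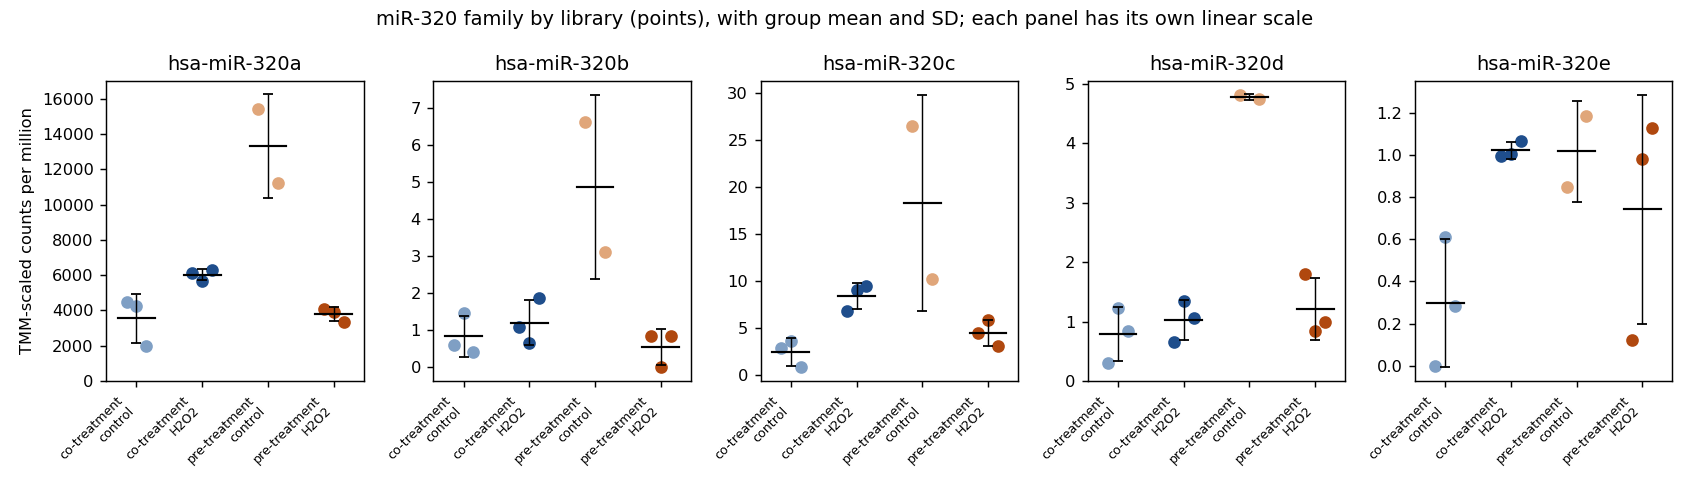
TMM-scaled CPM of each member (vertical axis, linear, a separate scale for each panel) in the 4 groups; points are libraries, horizontal bars group means and error bars SD (n = 3, and 2 for the pre-treatment control). hsa-miR-320a rises from 3556 to 6024 in co-treatment and falls from 13322 to 3795 in pre-treatment, and the pre-treatment controls are also the highest libraries for hsa-miR-320b, hsa-miR-320c and hsa-miR-320d.

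hsa-miR-320c, the next most abundant member, was 714 to 1435 times lower than hsa-miR-320a in group mean. Its counts in co-treatment were 19, 30 and 6 in the controls and 62, 54 and 71 with H2O2, or 2.48 ± 1.46 against 8.44 ± 1.40 CPM. In pre-treatment they were 187 and 69 in the controls and 37, 42 and 22 with H2O2, or 18.3 ± 11.5 against 4.47 ± 1.40 CPM. Groups did not overlap in either experiment, and the direction followed hsa-miR-320a in both.

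hsa-miR-320b was counted 4, 12 and 3 times in the co-treatment controls and 10, 4 and 14 times with H2O2, and these groups overlapped. In pre-treatment it fell from 47 and 21 counts to 7, 0 and 6 counts (4.88 ± 2.497 against 0.562 ± 0.486 CPM). hsa-miR-320d was counted 2, 10 and 6 times in the co-treatment controls and 6, 8 and 8 times with H2O2, again with overlap. In pre-treatment its controls were close to each other at 34 and 32 counts, and the H2O2 libraries held 15, 6 and 7 (4.77 ± 0.0461 against 1.21 ± 0.519 CPM). Both members thus had overlapping groups in co-treatment and separate groups in pre-treatment.

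hsa-miR-320e, the member with the moved seed, had at most 9 counts in any library, with 0, 5 and 2 counts in the co-treatment controls and 9, 6 and 8 with H2O2. Its pre-treatment counts were 6 and 8 in the controls and 1, 7 and 8 with H2O2, which overlapped. hsa-miR-4429 had at most 5 counts in any library and was too low to be tested in either experiment.

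Within each group the order of levels began with hsa-miR-320a, then hsa-miR-320c. hsa-miR-320c stood above the next member without overlap except in the co-treatment controls. The ranges of hsa-miR-320b, hsa-miR-320d and hsa-miR-320e overlapped with their neighbours in that order in all groups except the pre-treatment controls, where hsa-miR-320d exceeded hsa-miR-320e by 4.70 times.

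The ratio of a minor member to hsa-miR-320a within a library does not depend on scaling. For every 1000 counts of hsa-miR-320a there were 0.650 ± 0.213 counts of hsa-miR-320c in the co-treatment controls (0.433 to 0.859) and 1.40 ± 0.248 with H2O2 (1.12 to 1.59). hsa-miR-320c was thus higher relative to hsa-miR-320a in all 3 H2O2 libraries, although with 3 against 3 libraries no exact permutation test could pass the threshold and none was run. In pre-treatment the ratios were 1.31 ± 0.568 (n = 2) and 1.17 ± 0.296 (n = 3) and overlapped. For hsa-miR-320b the ratio was 0.233 ± 0.104 and 0.198 ± 0.0908 in co-treatment with overlap, and in pre-treatment the controls (0.277 and 0.431) lay above the H2O2 libraries (0.206, 0 and 0.251), from counts of at most 7 with H2O2. For hsa-miR-320d the groups overlapped in both experiments (0.367 ± 0.0782 and 0.316 ± 0.116 in pre-treatment). For hsa-miR-320e the co-treatment controls (0, 0.143 and 0.144) lay just below the H2O2 libraries (0.163 to 0.176), from counts of at most 9, and the pre-treatment groups overlapped.

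**Figure D2:**
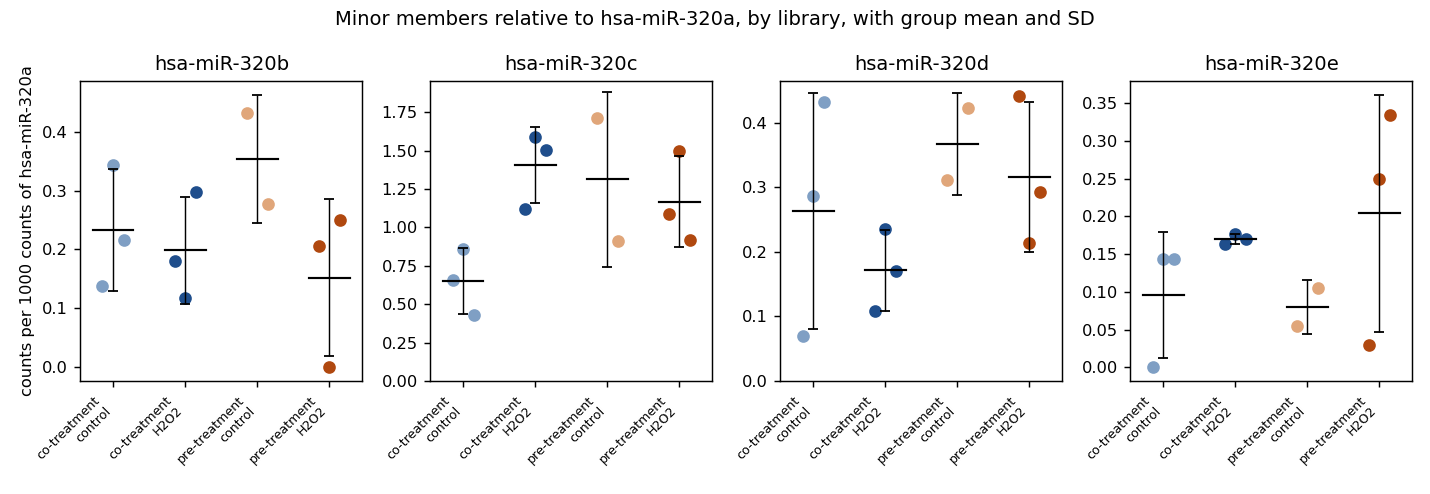
Counts of each minor member per 1000 counts of hsa-miR-320a (vertical axis, linear, a separate scale for each panel) in the 4 groups; points are libraries, horizontal bars group means and error bars SD. The 3 co-treatment H2O2 libraries (1.12 to 1.59) lie above the 3 controls (0.433 to 0.859) for hsa-miR-320c, while in pre-treatment its groups overlap.

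The first comparison asked which miRNAs differ when H2O2 is present during differentiation. In co-treatment, hsa-miR-320c rose 3.25-fold (log2FC 1.70 ± 0.44 SE, edgeR exact test, FDR = 0.00188) and was the 17th highest change among 790 tested miRNAs. It was the 1 member of 5 called raised, where 10.6% of all tested miRNAs were called raised and 26.2% called in either direction. The call held in edgeR's quasi-likelihood test (FDR = 0.0118), which called 22.9% of all tested miRNAs, and after leaving out any single library (FDR at most 0.0183).

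hsa-miR-320a had a log2FC of 0.72 ± 0.29 in co-treatment and was not called (FDR = 0.0790 in the edgeR exact test). Its call depended on the controls: without AH-con1 log2FC was 1.03 (FDR = 0.0470) and without AH-con2 it was 0.91 (FDR = 0.0326), whereas without the low AH-con3 it was 0.50 (FDR = 0.189). With DESeq2 it was just called (log2FC 0.76, FDR = 0.0493). hsa-miR-320e had a log2FC of 1.61 ± 0.83 (FDR = 0.100), and since it entered the test only through its H2O2 libraries, its groups had to differ. hsa-miR-320b (0.47 ± 0.67, FDR = 0.681) and hsa-miR-320d (0.26 ± 0.68, FDR = 0.830) were not called, with 95% intervals of -0.93 to 1.87 and -1.16 to 1.68 that leave room for a sizeable change in either direction. Leaving hsa-miR-320e aside, the H2O2 libraries lay above the controls without overlap for hsa-miR-320a and hsa-miR-320c and not for hsa-miR-320b and hsa-miR-320d, where 20.8% of all tested miRNAs showed such a gap. With hsa-miR-320e left aside, log2FC of the members ran from 0.26 (hsa-miR-320d) to 1.70 (hsa-miR-320c), and the median over all tested miRNAs was -0.04.

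The second comparison asked which miRNAs differ after H2O2 was applied and removed before differentiation. In pre-treatment, hsa-miR-320a fell 3.59-fold (log2FC -1.84 ± 0.25, edgeR exact test, FDR = 9.92e-06). hsa-miR-320b had the lowest value of the members (log2FC -3.09 ± 0.87, FDR = 0.00711) and was the 6th lowest of 868 tested miRNAs. Its 95% interval of -5.15 to -1.03 covers the values of hsa-miR-320a, hsa-miR-320c and hsa-miR-320d, so this order among members is uncertain. hsa-miR-320c (-2.04 ± 0.48, FDR = 0.00717) and hsa-miR-320d (-1.99 ± 0.49, FDR = 0.00881) fell about as much as hsa-miR-320a. hsa-miR-320e was not called (-0.52 ± 0.91, FDR = 0.785), with a 95% interval of -2.67 to 1.63. The edgeR exact test thus called 4 of the 5 members lowered, where 9.91% of all tested miRNAs were called lowered and 15.3% called in either direction. The same 4 members lay below the controls without overlap, against 22.4% of all tested miRNAs. The members' median log2FC was -1.99, beside -0.19 over all tested miRNAs.

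The calls differed in how they held in the quasi-likelihood test and without single libraries. hsa-miR-320a was called in the quasi-likelihood test (FDR = 0.0287), where 1.96% of all tested miRNAs were called. Its call also held after leaving out any single H2O2 library (FDR at most 0.0297), but not with a block for replicate number. hsa-miR-320b, hsa-miR-320c and hsa-miR-320d were not called in the quasi-likelihood test (FDR 0.0756, 0.0590 and 0.0613). They also lost their calls without HA1, without HA2 or without HA3 (FDR 0.0862 to 0.204), while log2FC stayed at -1.79 or lower. Without HA-con1, the control with the high hsa-miR-223-3p and hsa-miR-205-5p, log2FC of hsa-miR-320a was -1.59 and that of hsa-miR-320c -1.22. That fit has 1 control and so no spread between controls, and its calls are not given.

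Some markers moved with the groups, and their part in these results was not tested. The 8 neuronal markers summed to 31798 to 34674 CPM in the co-treatment controls and 15734 to 19149 with H2O2, and to 12355 and 22376 CPM in the pre-treatment controls and 29796 to 37590 with H2O2. This sum is almost wholly hsa-miR-137, which was thus opposite to hsa-miR-320a in both experiments. Other neuronal markers did not follow it throughout: hsa-miR-128-3p overlapped between groups in co-treatment (1410 to 1969 and 1631 to 1719 CPM), and hsa-miR-218-5p did in pre-treatment (42.4 and 85.3 against 34.7 to 65.4 CPM). The sum of the 4 red blood cell markers (2.12 and 3.70 CPM in the pre-treatment controls, 10.5 to 15.04 with H2O2), carried by hsa-miR-451a and hsa-miR-144-5p while hsa-miR-486-5p and hsa-miR-144-3p overlapped between groups, and the liver marker hsa-miR-122-5p (97.4 and 254 CPM, 551 to 835 with H2O2) were higher in the pre-treatment H2O2 libraries. Of the 2 measured muscle markers, hsa-miR-133a-3p was at 0 in all 11 libraries and hsa-miR-206 reached 3.78 CPM.

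The response to H2O2 was then compared between the experiments, by testing the interaction of treatment and experiment in edgeR over the 11 libraries together. The log2FC of pre-treatment minus that of co-treatment was -2.57 ± 0.42 for hsa-miR-320a (FDR = 0.00164), -3.58 ± 1.09 for hsa-miR-320b (FDR = 0.0243) and -3.78 ± 0.70 for hsa-miR-320c (FDR = 0.00221). hsa-miR-320d (-2.26 ± 0.82, FDR = 0.0506) and hsa-miR-320e (-2.13 ± 1.29, FDR = 0.240) did not pass. The fit called 3 of the 5 members lower in pre-treatment, where 14.4% of 945 tested miRNAs were, and 27.3% differed in either direction. The result for hsa-miR-320a and hsa-miR-320c was called after leaving out any single library. That for hsa-miR-320b was lost without AH-con1, AH-con3, AH3 or HA-con1 (FDR 0.0592 to 0.0807), and that for hsa-miR-320d passed without AH-con2, HA-con2 or HA1 (FDR 0.0363 to 0.0487).

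**Figure D3:**
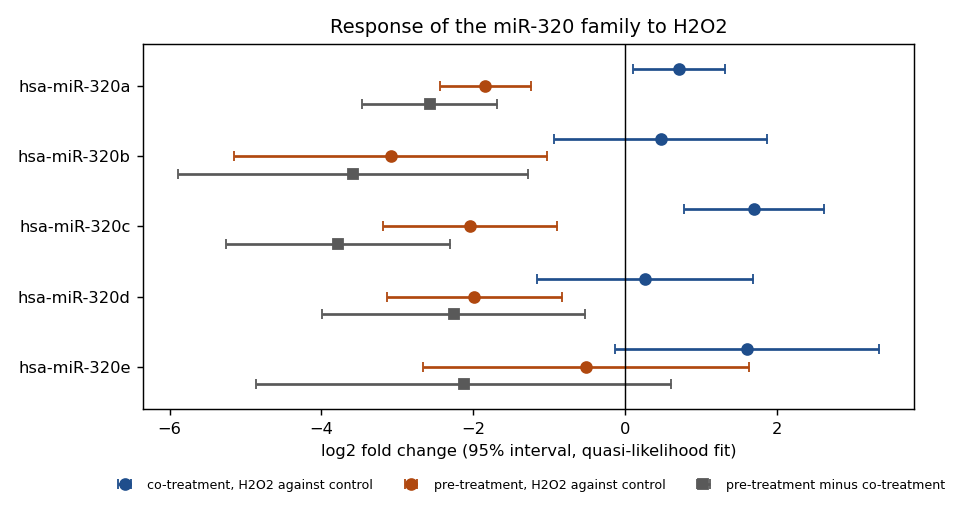
Log2 fold change of H2O2 against control for each member in co-treatment and in pre-treatment, and the difference between the experiments (horizontal axis; lines are 95% intervals of the quasi-likelihood fit). In co-treatment the intervals of hsa-miR-320a (0.11 to 1.32) and hsa-miR-320c (0.78 to 2.62) lie above 0, and in pre-treatment the intervals of hsa-miR-320a to hsa-miR-320d lie below 0, while that of hsa-miR-320e covers 0 in every comparison. The intervals are not adjusted for the number of miRNAs tested. Of the members, the quasi-likelihood test of each experiment called only hsa-miR-320c in co-treatment and only hsa-miR-320a in pre-treatment.

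Other miRNAs taken as Drosha-independent were examined as a list of hsa-miR-484 and both arms of 10 miRNAs taken as mirtrons. The tables held 21 of these, and 13 were tested in each experiment. The list was drawn up by name, and how each of its miRNAs is made was not tested. In co-treatment 2 of the 13 were called raised, where 10.6% of all tested miRNAs were, and none lowered, where 123 of 790 were. In either direction 26.2% of all tested miRNAs were called. The 2 raised were hsa-miR-1229-3p (log2FC 1.04 ± 0.31, edgeR exact test, FDR = 0.0108) and hsa-miR-877-3p (1.57 ± 0.52, FDR = 0.0188). In pre-treatment 4 of the 13 were called lowered, where 9.91% of all tested miRNAs were, and none raised, where 47 of 868 were. In either direction 15.3% of all tested miRNAs were called. The 4 lowered were hsa-miR-1224-5p (-2.60 ± 0.31, edgeR exact test, FDR = 4.16e-08), hsa-miR-1227-3p (-3.29 ± 0.64, FDR = 2.55e-04), hsa-miR-877-5p (-1.64 ± 0.26, FDR = 3.69e-04) and hsa-miR-1226-3p (-1.28 ± 0.34, FDR = 0.0219), the first and the third also by the quasi-likelihood test. hsa-miR-1224-5p was called after leaving out any single H2O2 library (FDR at most 0.00406). The calls of hsa-miR-877-5p and hsa-miR-1226-3p were lost without HA1, HA2 or HA3 (FDR 0.0594 to 0.237), and that of hsa-miR-1227-3p without HA1 (FDR = 0.0538). Sizes also moved with the control left out: log2FC of hsa-miR-1227-3p was -3.93 without HA-con1 and -1.88 without HA-con2, and that of hsa-miR-1226-3p was -0.65 and -1.68. In co-treatment the call of hsa-miR-1229-3p was lost without AH1 or AH3 and that of hsa-miR-877-3p without AH-con3, AH1 or AH3 (FDR 0.0520 to 0.106). The list's median log2FC was 0.53 in co-treatment and -1.23 in pre-treatment, beside -0.04 and -0.19 over all tested miRNAs.

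hsa-miR-484, a capped hairpin of the same kind as miR-320a, was not called in either experiment. Its hairpin is at chr16:15737151-15737229 (GRCh37, plus strand) in an untranslated region of NDE1. In co-treatment it was counted 1942, 3636 and 705 times in the controls and 4172, 3131 and 3327 times with H2O2 (log2FC 0.70 ± 0.39, edgeR exact test, FDR = 0.181). In pre-treatment the controls held 6371 and 1102 counts, on either side of the H2O2 libraries at 5094, 4416 and 3310 (log2FC 0.09 ± 0.61, FDR = 0.979). The value rests on which control is used: without HA-con1 log2FC was 1.76, and without HA-con2 it was -0.65. In co-treatment it was called without AH-con2 (log2FC 1.25, FDR = 0.00979). Its difference between the experiments was -0.67 ± 0.76 (FDR = 0.534), with a 95% interval of -2.29 to 0.94 that overlaps that of hsa-miR-320a (-3.46 to -1.68).

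**Figure D4:**
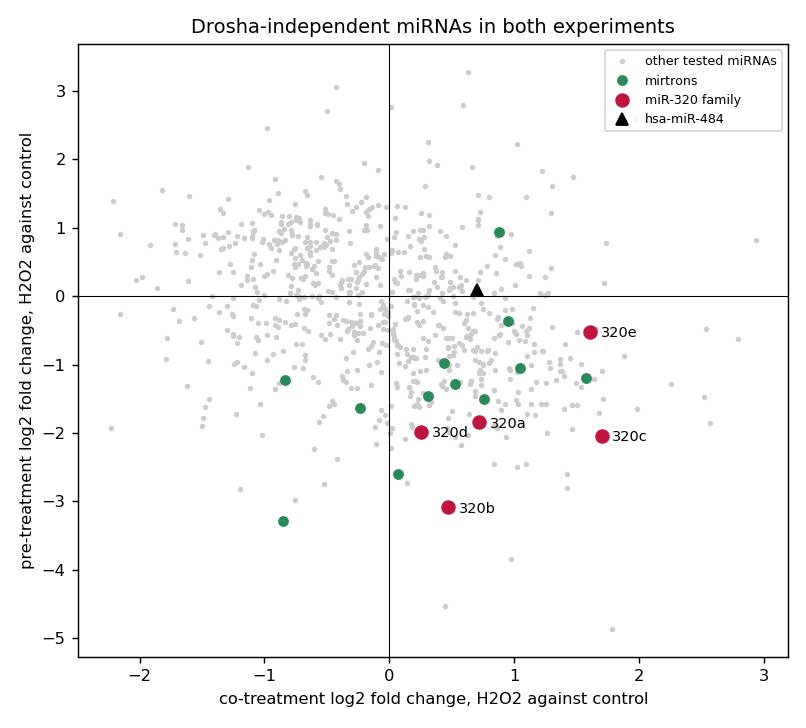
Log2 fold change of H2O2 against control in co-treatment (horizontal axis) and in pre-treatment (vertical axis) for miRNAs tested in both; each point is a miRNA, with the miR-320 family, mirtrons and hsa-miR-484 marked. hsa-miR-320a to hsa-miR-320d have values above 0 in co-treatment and below 0 in pre-treatment. hsa-miR-320e lies there too, but it entered the co-treatment test only through its H2O2 libraries, so its direction there is no result. hsa-miR-484 is at 0.09 in pre-treatment, and grey points are found in every quadrant.

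The miRNAs outside the family whose pattern was most like that of its summed level were sought among 403 with a mean of at least 10 CPM, by Pearson's r of log2(CPM + 1) over the 11 libraries after the mean of each experiment was removed. These were hsa-miR-18a-3p (r = 0.98), hsa-miR-4326 (0.94), hsa-miR-760 (0.93), hsa-miR-129-2-3p (0.93) and hsa-miR-106b-3p (0.92). The points share libraries and depth, and r is a description. Among these, hsa-miR-760 was called in both experiments by the edgeR exact test (log2FC 1.09, FDR = 0.00165, and -2.45, FDR = 9.92e-06), as was hsa-miR-106b-3p (0.96, FDR = 0.0202, and -1.21, FDR = 0.0136). hsa-miR-18a-3p, hsa-miR-4326 and hsa-miR-129-2-3p were called in pre-treatment (-1.68, -1.29 and -1.61, FDR 4.86e-04, 0.0168 and 0.00492) and not in co-treatment (0.51, 0.42 and 0.23, FDR 0.270, 0.318 and 0.608). Without HA1, HA2 or HA3 the pre-treatment calls of hsa-miR-18a-3p, hsa-miR-4326, hsa-miR-129-2-3p and hsa-miR-106b-3p were lost (FDR 0.0661 to 0.282), and that of hsa-miR-760 was not. In co-treatment, hsa-miR-106b-3p lost its call without AH1 or AH3 (FDR 0.0954 and 0.0587), and hsa-miR-18a-3p was called without AH-con2 (FDR = 0.0388). All 5 were chosen for their likeness to the family, so their direction is no separate result.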

How the data were processed

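Small RNA libraries (QIAseq miRNA kit, NextSeq 500) were made by the authors from total RNA. Per the submitters' processing notes and the methods of the study, FastQC 0.11.8 was used for quality control, cutadapt 2.10 for trimming, Bowtie2 2.4.1 for alignment (hg19) and HTSeq 0.7.2 for counting, and the authors deposited the raw count of each mature miRNA. The miRBase release, the treatment of reads that match several miRNAs and the use of molecular identifiers are not given in the sources used here, so counts are read counts. The deposited comparison tables (the authors' fold changes, mean log CPM, p-values and FDR from edgeR 3.6.1) were not used.

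Samples were grouped by their labels. Each experiment's H2O2 libraries were tested against its controls by edgeR 4.0.16 (exact test, TMM scaling, R 4.3.3), with an FDR (Benjamini-Hochberg) under 0.05 and an absolute log2FC above 0.6. The p-values measure the spread between these samples. Testing required a CPM above 0.936 in 3 co-treatment libraries or above 0.721 in 2 pre-treatment libraries, the value of 5 counts at the lowest depth, which left 790 and 868 miRNAs. SE and intervals came from edgeR's quasi-likelihood test. The difference between experiments was the interaction in a fit of all 11 libraries (945 miRNAs). GC content was known for 88.6 and 88.5% of the tested miRNAs. Alternatives were the quasi-likelihood test, DESeq2 1.42.0, other scalings, filters and log2FC thresholds, a fit of all libraries, a replicate block, removal of the GC trend and leaving out each library.

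The members, and the lists of Drosha-independent miRNAs and cell type markers, were chosen with earlier results of these data known. Named miRNAs were all members, miRNAs with a member's seed, hsa-miR-484 and the called mirtrons, and the 5 most alike miRNAs. Tested on simulated data with known changes, the exact test recovered 173 of 183 changed miRNAs in the co-treatment design (5 false of 178 calls) and 104 of 179 in the pre-treatment design (7 false of 111), and the interaction 110 of 185 (4 false of 114). All planted changes were larger than the co-treatment log2FC of hsa-miR-320a (0.72), and each miRNA had the same spread in every group. Recovery of smaller changes was not tested, nor were false calls where the controls are more variable, as in pre-treatment. Mature sequences are from RefSeq (GRCh38.p14) and positions from a GRCh37 annotation.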

Additional observations from a re-analysis of the deposited data

Results flagged for a closer look

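Responses to H2O2 that differed between the experiments are collected here with the log2FC of pre-treatment minus that of co-treatment from the quasi-likelihood fit of all 11 libraries, adjusted over 945 miRNAs. In the miR-320 family the difference was -2.57 for hsa-miR-320a (FDR = 0.00164), -3.58 for hsa-miR-320b (FDR = 0.0243) and -3.78 for hsa-miR-320c (FDR = 0.00221). All 3 had a log2FC above 0 in co-treatment and below 0 in pre-treatment.

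Among the mirtrons of the list, only part of the tested arms were called in this fit. The difference was -2.63 for hsa-miR-1224-5p (FDR = 0.00106), -1.81 for hsa-miR-1226-3p (FDR = 0.0125), -2.36 for hsa-miR-1227-3p (FDR = 0.0379), -2.81 for hsa-miR-877-3p (FDR = 0.0229) and -1.38 for hsa-miR-877-5p (FDR = 0.0248). Of these, hsa-miR-1227-3p and hsa-miR-877-5p had a log2FC below 0 in both experiments, and the other 3 above 0 in co-treatment. On leaving out each library in turn, the call of hsa-miR-1224-5p was kept in all 11 cases and that of hsa-miR-1226-3p in 10 (lost without HA-con1, -1.17, FDR = 0.0593). That of hsa-miR-1227-3p was kept in 4 of 11, with values from -3.05 to -1.04 (FDR up to 0.234 without HA-con2), and lost without AH-con2, AH-con3, AH1, HA-con2, HA1, HA2 or HA3. That of hsa-miR-877-3p was kept in 8 (lost without AH1, HA-con1 or HA3, -1.75 without HA-con1) and that of hsa-miR-877-5p in 8 (lost without AH2, HA1 or HA3, FDR up to 0.0658). The other tested mirtron arms of the list were not called, among them hsa-miR-1229-3p (-2.12, FDR = 0.0610). Their values ran from -2.32 to 0.10. For comparison, 27.3% of the 945 tested miRNAs differed between the experiments, and 14.4% were called lower in pre-treatment. The difference compares regimens that were also separate experiments, and the regimen and any condition that changed the H2O2 response between the experiments cannot be told apart.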

How the results depend on the processing

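Depth and sample number limit the family's minor members: hsa-miR-320b, hsa-miR-320d and hsa-miR-320e stayed under 50 counts in every library, and pre-treatment rests on 2 controls. hsa-miR-320c in co-treatment kept its call in every alternative that tested it. Over the values of the members and the counts of calls, 259 alternative values kept their direction and side of the threshold (counts: within 1.5 times), 50 were weaker, 15 stronger and 1 reversed.

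In co-treatment, 207 miRNAs were called, against 84 in the fit of all 11 libraries, 50 with the GC trend removed (153 in the same fit without removal) and 110 to 279 on leaving out each library. DESeq2 called 2 members, and hsa-miR-320a passed with DESeq2 (0.76) and with the CPM minimum required in every library (0.89). Leaving out each library gave 1 to 3 members called. The 3 called without AH-con2 include hsa-miR-320e, which entered the test only through its H2O2 libraries, so its call is no result. The log2FC ranges were 0.50 to 1.03 for hsa-miR-320a, 1.21 to 2.68 for hsa-miR-320e and -0.088 to 0.26 for hsa-miR-1224-5p, which was -0.54 with the GC trend removed. The cause was not tested.

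In pre-treatment, 133 miRNAs were called, against 17 in the quasi-likelihood test, 61 without a low-count filter, 12 among miRNAs with a GC value in the quasi-likelihood test, 2 with the GC trend removed and 8 to 460 on leaving out each library (8 to 14 without HA1, HA2 or HA3, 288 without HA-con1, 460 without HA-con2). The quasi-likelihood test called 1 member, with -3.09, -2.04 and -1.99 for hsa-miR-320b, hsa-miR-320c and hsa-miR-320d. Among miRNAs with a GC value, where hsa-miR-320a is absent, it called 0 members (-3.09, -2.05 and -1.997; 3 of these members, hsa-miR-320b, hsa-miR-320c and hsa-miR-320d, had an unadjusted p under 0.05 in the exact test), and 0 with the GC trend removed (-3.02, -1.98 and -2.05, FDR 0.110, 0.0863 and 0.0676). Leaving out each library gave 1 to 4 members called, -3.48 to -2.44 for hsa-miR-320b, -2.54 to -1.22 for hsa-miR-320c, -2.36 to -1.79 for hsa-miR-320d, -0.93 to 0.052 for hsa-miR-320e (above 0 without HA1), -0.65 to 1.76 for hsa-miR-484 and -1.89 to 1.35 for hsa-miR-1229-3p (above 0 without HA-con1). hsa-miR-484 was -0.19 with the CPM minimum in every library.

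For the difference between experiments, 258 miRNAs were called, against 164 to 446 on leaving out each library. With library size scaling hsa-miR-320d passed (-2.35), and with the CPM minimum in every library 1 member was called. Leaving out each library gave -4.28 to -2.93 for hsa-miR-320b, -2.71 to -1.90 for hsa-miR-320d, -1.43 to 1.03 for hsa-miR-484 and -2.98 to 0.30 for hsa-miR-1229-3p.

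In co-treatment, replicate numbers were not found to pair the libraries: deviations of same-numbered libraries from their group means correlated at 0.04, -0.16 and -0.16. The pre-treatment values were 0.22 and -0.05. They cannot decide pairing, because the deviations of 2 controls from their mean mirror each other. With the replicate block, 111 miRNAs were called in co-treatment, 15 in pre-treatment and 115 for the difference. In pre-treatment the block left 1 member called, hsa-miR-320b, with -1.74 for hsa-miR-320a (FDR = 0.124), -1.71 for hsa-miR-320c and -1.92 for hsa-miR-320d. With 1 control left after leaving out the other, that control was assumed to vary like the H2O2 libraries.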
